A study of Mus musculus with 30 samples.

Results

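The genes described here are the Id family of helix-loop-helix inhibitors (Id1, Id2, Id3 and Id4), the helix-loop-helix factor Atoh8, the ligand Bmp4 and the inhibitory Smads Smad6 and Smad7. They were followed in cultured mouse leg muscle cells over 5 hours of sampling, 0, 4, 12, 24 and 48 h, with 3 replicates an hour. Members were all probe sets on the A and B chips of an Affymetrix pair that the platform annotation assigned to only 1 of these genes. That gave 13 probe sets of 8 genes, 12 on A and 1 on B, of 45265 probe sets on both chips and of 18193 genes named there. All groups were cell cultures labelled as mouse leg muscle and differed only in the hour, and the sources used here give no strain, age, medium or starting event for the clock. Both chips carry the same hours and replicate numbers, for 30 arrays in all. Nothing says that replicates were separate cultures or animals, so a p-value here speaks only of how these arrays spread, and that spread may be technical.

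BMPs (bone morphogenetic proteins) are secreted ligands that bind pairs of type I and type II receptor kinases. The receptors phosphorylate Smad proteins, which enter the nucleus with Smad4 and switch on a small set of direct targets, among them the Id genes and the inhibitory Smads, which feed back on the pathway. Id proteins have a helix-loop-helix domain but no DNA-binding region. They pair with the E proteins that MyoD and myogenin need, and in muscle precursors they are known for holding back differentiation.

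Promoter sequences, from RefSeq on GRCm38.p6, are shown for members that were lower at later hours. Windows were matched to members by symbol, with a chromosome left out of the matching, which gave windows for 6 of the 8 members (Id2, Id3, Id4, Atoh8, Bmp4 and Smad6). No window was found for Id1 and Smad7, through the sequence source or that matching, which says nothing about their promoters. Each window runs from 250 bases before the annotated transcription start to 50 bases after it, and is written 5′ to 3′ on the strand of the gene. Capitals mark GGCGCC (a GC-rich Smad element), GTCTAGAC (the Smad box palindrome), CAGAC or its reverse complement GTCTG (a shorter Smad site), and CANNTG (the E-box, bound by helix-loop-helix dimers). All motifs were searched on both strands. The Smad6 window lies at chr9:64022010-64022309 on the minus strand, the Id3 window at chr4:136143572-136143871 on the plus strand, the Atoh8 window at chr6:72235528-72235827 on the minus strand and the Id2 window at chr12:25096043-25096342 on the minus strand.
Smad6: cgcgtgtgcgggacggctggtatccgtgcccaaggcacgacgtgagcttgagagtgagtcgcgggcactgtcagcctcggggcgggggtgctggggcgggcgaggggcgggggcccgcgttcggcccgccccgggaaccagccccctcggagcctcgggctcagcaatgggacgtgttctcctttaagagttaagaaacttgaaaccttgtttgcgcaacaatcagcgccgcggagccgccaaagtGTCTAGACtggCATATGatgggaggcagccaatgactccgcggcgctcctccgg
Id3: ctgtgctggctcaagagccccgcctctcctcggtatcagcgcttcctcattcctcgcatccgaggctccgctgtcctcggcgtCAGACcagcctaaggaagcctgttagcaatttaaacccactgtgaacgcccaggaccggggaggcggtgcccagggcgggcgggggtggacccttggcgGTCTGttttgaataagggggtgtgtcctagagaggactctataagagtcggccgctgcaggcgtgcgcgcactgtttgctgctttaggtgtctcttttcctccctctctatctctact
Atoh8: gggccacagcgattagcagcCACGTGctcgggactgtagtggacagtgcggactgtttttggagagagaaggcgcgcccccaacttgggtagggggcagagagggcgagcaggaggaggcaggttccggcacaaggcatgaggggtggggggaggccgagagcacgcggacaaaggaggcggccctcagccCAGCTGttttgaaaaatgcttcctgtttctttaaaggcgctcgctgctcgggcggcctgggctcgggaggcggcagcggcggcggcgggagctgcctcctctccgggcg
Id2: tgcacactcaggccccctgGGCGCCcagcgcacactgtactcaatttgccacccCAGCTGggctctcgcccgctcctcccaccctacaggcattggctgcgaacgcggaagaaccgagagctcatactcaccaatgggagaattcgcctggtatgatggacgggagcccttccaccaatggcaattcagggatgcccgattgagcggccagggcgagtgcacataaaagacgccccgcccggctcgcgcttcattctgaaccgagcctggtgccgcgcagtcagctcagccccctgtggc

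The Smad6 window held the palindrome GTCTAGAC from base -4, counted from the start site, followed by the E-box CATATG from base 7. The palindrome was present in 0.213% of 32851 promoter windows of the same length, and it was added to the search after the Smad6 window had been read. The Id3 window held the shorter Smad site on both strands, from bases -167 and -68, a motif present in 49.6% of all windows, and it held no E-box. The Id2 window held GGCGCC from base -231 and the E-box CAGCTG from base -196. Among the windows not printed, Id4 also held GGCGCC, from base -148. GGCGCC was present in 11.9% of all windows and an E-box in 72.3%. The Atoh8 window held the E-boxes CACGTG and CAGCTG and none of the Smad motifs, and the Bmp4 window held 3 E-boxes and none of the Smad motifs. A match describes letters in the window and does not show that a factor bound there.

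The deposited values are linear intensities already scaled to a common array mean, so a level can be compared across arrays for 1 probe set but not between probe sets. Of the 13 member probe sets, 12 passed the filter on low values (the upper 60% of each chip by mean log2 intensity) and were tested, and the third Id4 probe set did not pass. All 10 skeletal muscle markers of a list were above the filter, and their summed intensity was 47514 to 80646 across arrays. Of other cell types, none of the 5 adipocyte markers on the arrays passed the filter, and of 10 endothelial markers the defining Pecam1, Cdh5, Tie1, Emcn, Cldn5, Vwf and Esam lay below it while Kdr, Tek and Egfl7 passed. Above the filter were also 4 of 8 pericyte or smooth muscle markers (summed intensity of all 8 from 9759.5 to 20471), 4 of 9 macrophage or leukocyte markers (897.6 to 1543.6), 2 of 8 fibroblast markers (2550.2 to 5550.7), 3 of 7 cartilage markers (409.5 to 2215.3), 2 of 4 Schwann cell markers (754.7 to 2606.9) and 2 of 4 tendon markers (484.9 to 826.4). The 5 arrays of replicate 3 stood apart from the other 10 on each chip. Over all hours, 33.9% of the A chip's tested probe sets differed between replicate 3 and replicates 1 and 2, by limma with Benjamini-Hochberg adjustment. The summed intensity of 9 cell division genes was 11392 to 14838 in replicate 3 and 3324.7 to 8041.4 in replicates 1 and 2. Results are therefore given over all arrays, with replicate 3 as a batch term, and in replicates 1 and 2 alone. In these bulk samples, fewer cells of a type and less RNA per cell cannot be told apart.

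The main probe set of every member but Bmp4 had a lower mean at 12, 24 and 48 h than at 0 h. Atoh8 and Id3 had the largest falls. Id1 and Smad6 also fell, and Id2, Id4 and Smad7 were lower at 24 h by amounts that did not pass the test over all arrays but passed it with replicate 3 as a batch and in replicates 1 and 2 alone. Bmp4 showed no shared direction. Over all arrays, 4 of 12 member probe sets were called at 24 h against 0 h (limma, adjusted p under 0.05), all lower, beside 2.67% of the A chip's tested probe sets called in either direction and 1.06% called lower. On B the shares were 0.851% and 0.259%. At 48 h, 3 of 12 were called, all lower, beside 2.15% of the A chip called and 0.729% called lower (1.13% and 0.459% on B).

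**Figure D1:**
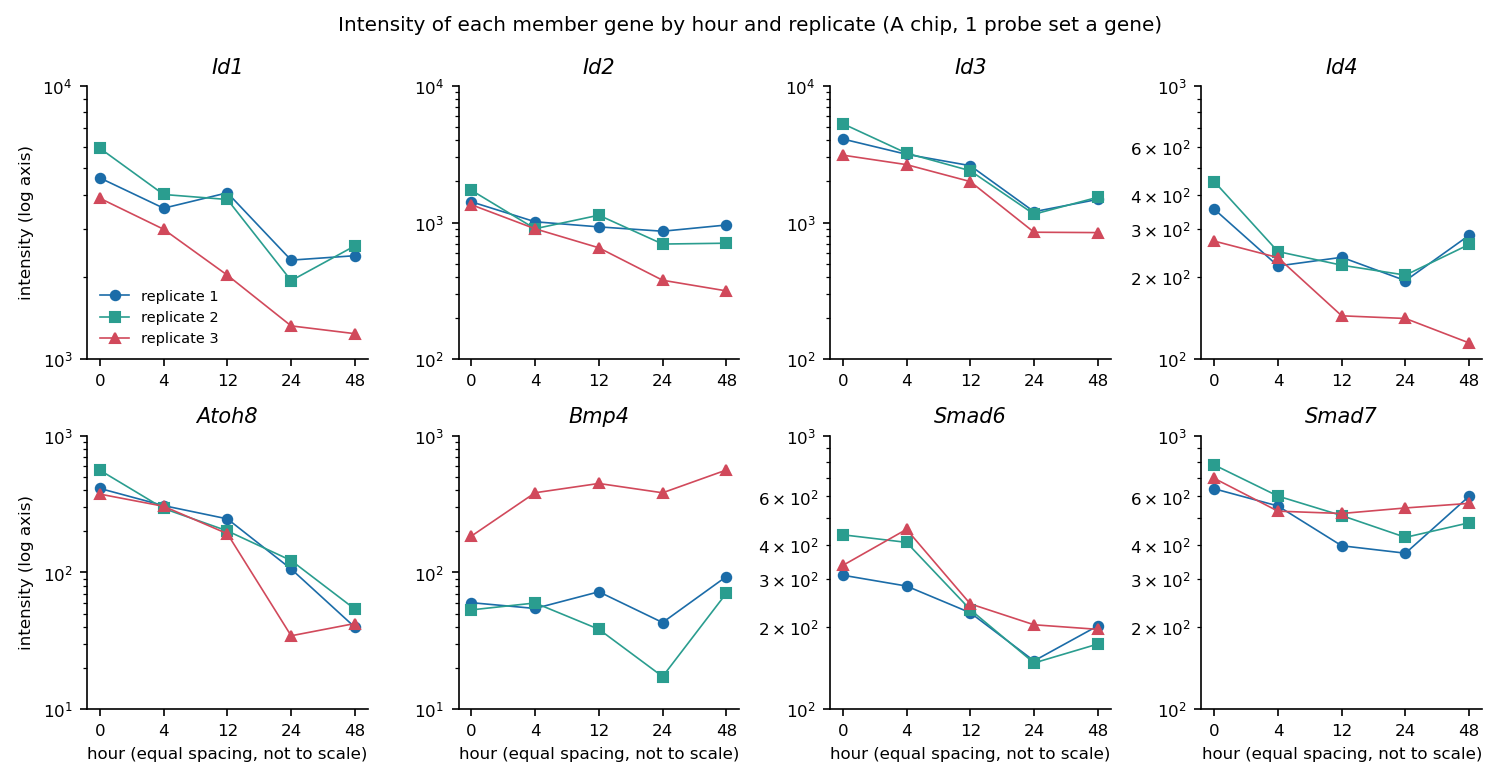
Intensity (log axis) of the A chip probe set that stands for each of the 8 genes, against hour, with 1 line per replicate. Id1, Id2, Id3, Id4 and Atoh8 lie lower at 24 h than at 0 h in all 3 replicates, while Bmp4 lies far higher in replicate 3 (184.4 to 562.2) than in replicates 1 and 2 (17.3 to 93.3).

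At 4 and 12 h against 0 h, no member was called over all arrays by limma. The shares called were 0% of the A chip's tested probe sets at each hour (0% and 0.0074% on B). Of the 12 tested member probe sets, 3 and 8 had an unadjusted limma p under 0.05. On the whole A chip 671 and 890 of 13576 did, and on B 732 and 858 of 13507. With replicate 3 as a batch, 0 members were called at 4 h (0% of the A chip) and 2 at 12 h, Id3 and Atoh8, beside 1.05% of the A chip called. In the same fit 9 probe sets of 7 genes, all members but Bmp4, were called at 24 h, beside 13% of the A chip called and 7.04% called lower. At 48 h 8 probe sets of 6 genes, all but Bmp4 and Smad7, were called, beside 9.79% called and 4.69% called lower. In replicates 1 and 2 alone, 0, 3, 8 and 6 member probe sets were called at 4, 12, 24 and 48 h, beside 0.177%, 4.18%, 15% and 12.4% of the A chip. The B chip's Smad7 set was called in none of the 3 fits. All these member calls were lower.

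Without any model, all 3 arrays lay below all 3 arrays at 0 h for 8 of 12 tested member probe sets at 4 h, beside 4.77% of the A chip's tested probe sets (5.96% on B). The count was 8 of 12 at 12 h beside 5.3% (5.26% on B), 9 of 12 at 24 h beside 11.8% (7.91% on B), and 8 of 12 at 48 h beside 8.35% (9.01% on B). No member probe set lay wholly above its 0 h arrays at any hour. These 4 comparisons share their 0 h arrays. The median log2 difference over the 12 tested probe sets was -0.47 at 4 h, -0.57 at 12 h, -0.93 at 24 h and -0.79 at 48 h, where the median over all tested probe sets of the A chip was -0.016, -0.011, -0.046 and 0.0069. Log2 values throughout are of intensity plus a pseudocount (29 on A, 54 on B), which understates the change of dim genes.

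**Figure D2:**
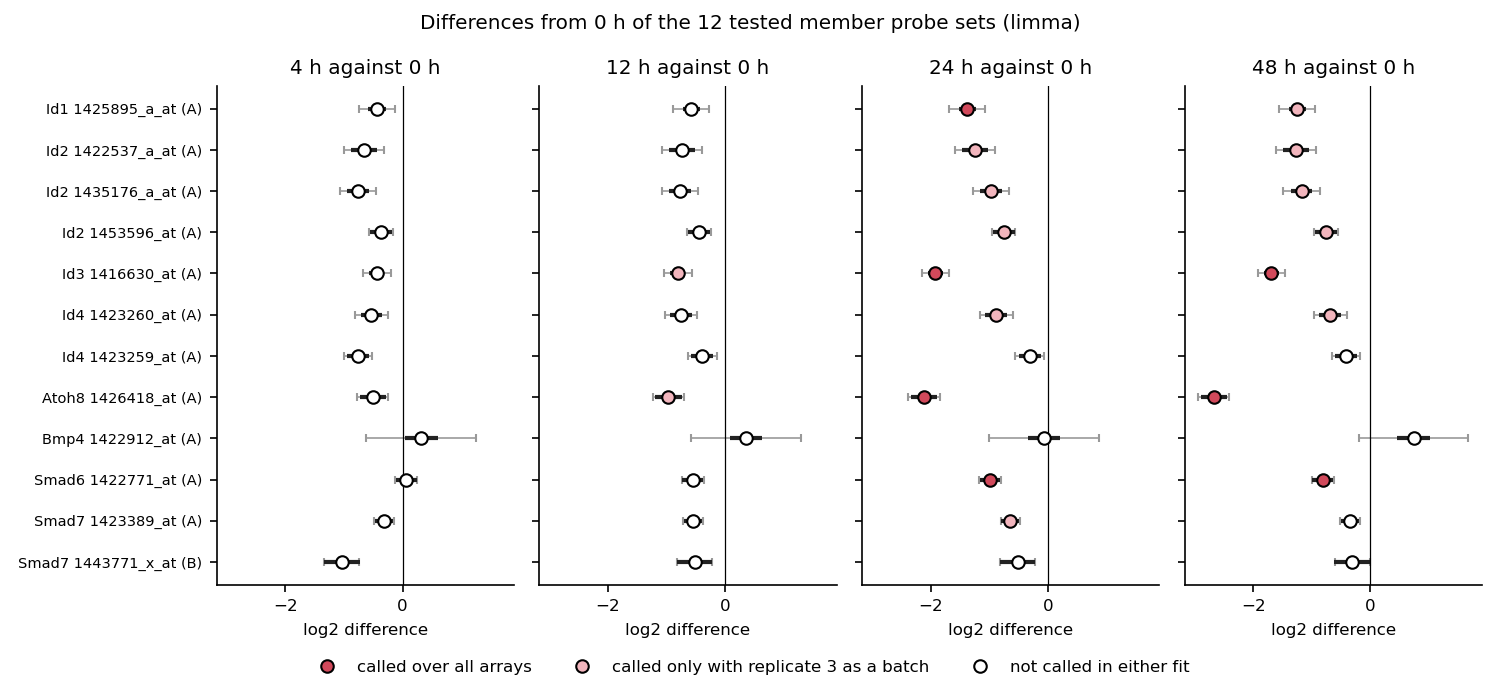
Log2 difference from 0 h (x axis) of each tested member probe set (y axis, chip in brackets) at 4, 12, 24 and 48 h. Thin grey bars are the standard error over all arrays and thick black bars the standard error with replicate 3 as a batch; 4 probe sets at 24 h and 3 at 48 h are called over all arrays.

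Id1, an Id inhibitor widely used as a readout of BMP signalling (1425895_a_at), had intensities of 4609.5, 5918.2 and 3882.7 at 0 h in replicates 1, 2 and 3. They were 3571.1, 4008.8 and 2990.2 at 4 h and 4065.7, 3842.7 and 2030.2 at 12 h. They were 2305.4, 1939.9 and 1324.6 at 24 h and 2393.1, 2600.4 and 1240.4 at 48 h. Every 24 h and 48 h array lay below every 0 h array, while the 4 h and 12 h arrays overlapped them. The 24 h mean was 38.7% of the 0 h mean, and the log2 difference was -1.37 (SE 0.31, limma adjusted p = 0.027). At 48 h the mean was 43.3% of the 0 h mean and the difference of -1.25 (SE 0.31) did not pass the test over all arrays (limma adjusted p = 0.051), but did with replicate 3 as a batch (limma adjusted p = 8.7e-05) and in replicates 1 and 2 alone (-1.06, limma adjusted p = 0.00039). The 24 h call was lost on leaving out 0 h replicate 1 or 2, or any 24 h replicate, with log2 differences of -1.15 to -1.54 and adjusted p-values of 0.061 to 0.15.

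Id3, which like Id1 binds E proteins and is a direct BMP target (1416630_at), had the largest log2 differences of the 4 Id genes at 24 and 48 h, and the contrast with the other Id genes was not tested. Its intensities were 4094.0, 5299.9 and 3118.6 at 0 h, 3162.3, 3224.8 and 2657.4 at 4 h, and 2611.1, 2397.0 and 1997.5 at 12 h. They were 1202.5, 1152.6 and 850.6 at 24 h and 1479.5, 1534.2 and 845.2 at 48 h. From 12 h on no array reached the lowest 0 h array. Against 0 h the mean stood at 56.0% after 12 h, 25.6% after 24 h and 30.8% after 48 h. The log2 difference was -1.92 (SE 0.23, limma adjusted p = 0.0020) at 24 h and -1.69 (SE 0.23, limma adjusted p = 0.0028) at 48 h, and both were called with any 1 of the 15 A chip arrays left out. At 12 h the difference of -0.80 passed with replicate 3 as a batch (limma adjusted p = 0.0076) and not over all arrays (limma adjusted p = 0.45).

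Id2, an inhibitor of the same E proteins, was measured by 3 probe sets. The brightest (1422537_a_at) read 1420.9, 1725.9 and 1352.7 at 0 h, 1014.5, 902.3 and 901.3 at 4 h, and 931.0, 1133.1 and 654.4 at 12 h. It read 865.0, 696.9 and 378.7 at 24 h and 960.7, 706.9 and 316.5 at 48 h. At each later hour all 3 arrays lay below all 0 h arrays. The log2 difference was -1.24 (SE 0.34, limma adjusted p = 0.073) at 24 h and -1.27 (SE 0.34, limma adjusted p = 0.076) at 48 h over all arrays, so neither passed. With replicate 3 as a batch both passed (limma adjusted p = 0.0015 and 0.0014), and in replicates 1 and 2 alone the differences were -0.99 and -0.90 (limma adjusted p = 0.0029 and 0.0060). The second probe set (1435176_a_at) differed by -0.97 at 24 h and the dimmest one (1453596_at) by -0.75, and neither was called over all arrays. After centring each probe set within each replicate number, the 3 sets correlated across the 15 arrays with r of 0.852 to 0.878. This is a description over arrays that share hours.

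Id4, the family member that can also antagonise other Id proteins, was dim. Its brightest probe set (1423260_at) read 354.3, 447.1 and 270.7 at 0 h, 219.5, 247.8 and 235.5 at 4 h, and 236.1, 220.9 and 144.2 at 12 h. It read 193.9, 203.2 and 141.0 at 24 h and 284.4, 263.2 and 114.7 at 48 h. The arrays at 4, 12 and 24 h lay below those at 0 h, and the 48 h arrays overlapped them. The 24 h difference of -0.88 (SE 0.28) was not called over all arrays (limma adjusted p = 0.11) and was called with replicate 3 as a batch (limma adjusted p = 0.0051). The second probe set (1423259_at) was lowest at 4 h, at 54.2% of its 0 h mean, and stood at 78.7% at 24 h, with no call in any of the 3 fits. The third (1450928_at), below the filter and untested, had means of 77.4 to 127.7. Across arrays, centred within each replicate number as for Id2, the 3 Id4 sets correlated with r of 0.189 to 0.462, against 0.852 to 0.878 for Id2.

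**Figure D3:**
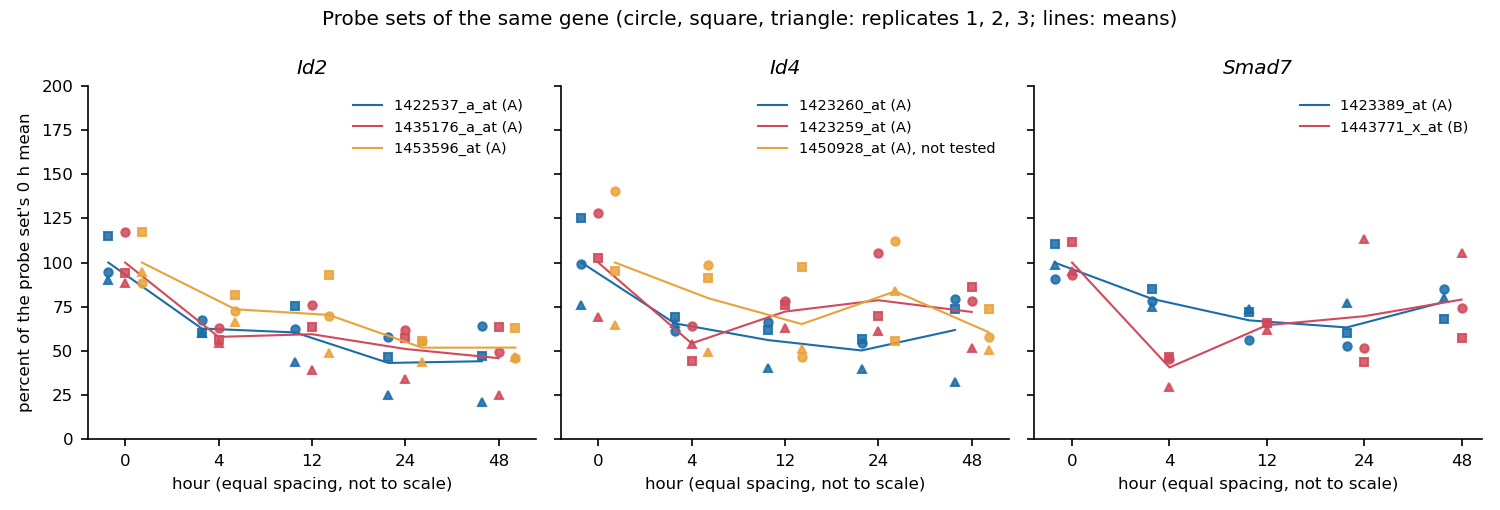
Probe sets of the 3 genes measured more than once, as percent of each set's 0 h mean (y axis) against hour, with symbols for replicates and lines for means of 3. The 3 Id2 sets lie between 43.1% and 51.8% at 24 h, while 2 tested Id4 sets lie at 50.2% and 78.7%.

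Atoh8, a basic helix-loop-helix factor that has been described as BMP-induced in other cell types (1426418_at), showed the largest fall of any member. Its intensities were 412.0, 560.2 and 374.5 at 0 h, 308.5, 294.0 and 305.1 at 4 h, and 246.7, 201.4 and 192.0 at 12 h. They were 106.0, 122.3 and 34.4 at 24 h and 39.7, 53.9 and 42.3 at 48 h. The groups at 4, 12, 24 and 48 h all lay wholly below 0 h, and the 48 h mean was 10.1% of the 0 h mean, 9.91-fold lower. At 48 h the 3 arrays were at 9.64%, 9.62% and 11.3% of the 0 h array of the same number. The log2 difference was -2.11 (SE 0.27, limma adjusted p = 0.0020) at 24 h and -2.67 (SE 0.27, limma adjusted p = 0.00050) at 48 h, and both were called with any 1 array left out. Its 48 h intensities are close to the pseudocount of 29 and under the filter's floor of 96.6, so the size there depends on the pseudocount: the log2 difference was -1.80 with a pseudocount 4 times larger and -3.27 with a pseudocount of 1. Unlike Id1 and Id3, whose means at 48 h were above those at 24 h, the mean of Atoh8 was lower at 48 h than at 24 h. That step of -0.56 was not called over all arrays (limma adjusted p = 0.63) or with replicate 3 as a batch (limma adjusted p = 0.20), and was called in replicates 1 and 2 alone (-0.92, limma adjusted p = 0.029, beside 4.63% of the A chip).

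**Figure D4:**
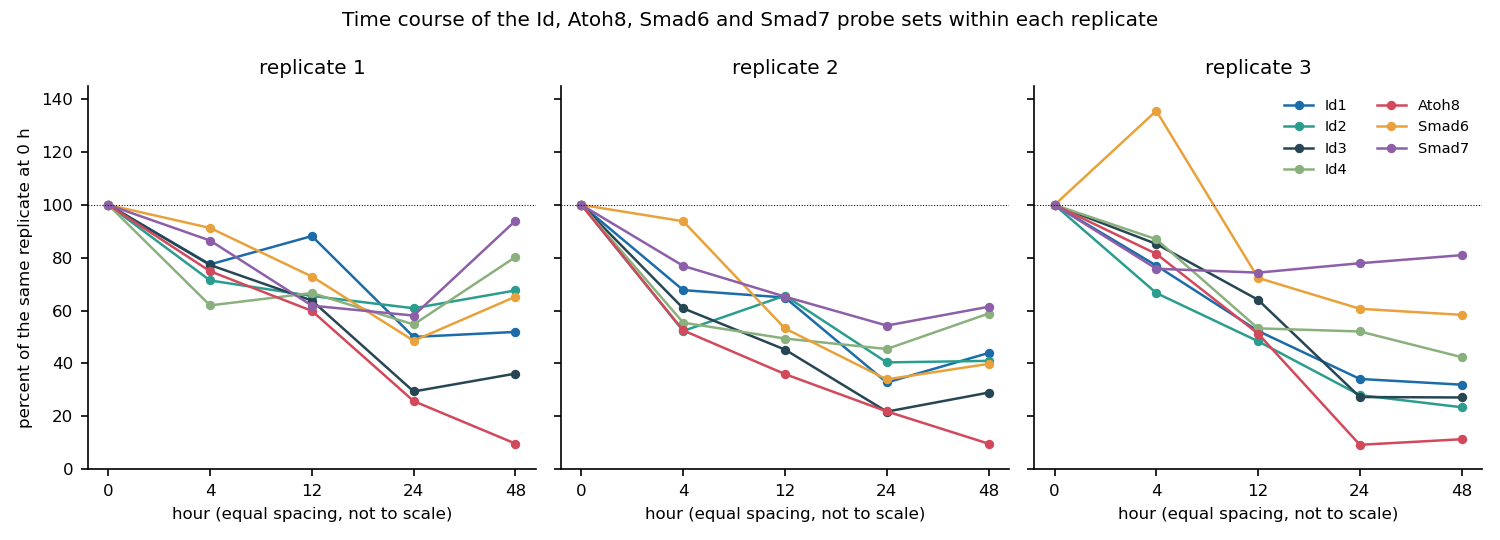
Intensity as percent of the same replicate at 0 h (y axis, linear from 0) against hour, 1 panel per replicate number, a scaling for display that no test used, for the 7 members other than Bmp4. In each panel Atoh8 ends lowest, at 9.64%, 9.62% and 11.3%, and Smad7 ends highest, while Smad6 at 4 h lies at 91.3%, 93.8% and 136%.

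Smad6, the inhibitory Smad most selective for BMP receptors (1422771_at), overlapped 0 h at 4 h and was lower afterwards. Its intensities were 309.0, 434.4 and 335.4 at 0 h, 282.0, 407.5 and 454.8 at 4 h, and 225.2, 231.2 and 242.7 at 12 h. They were 150.1, 147.5 and 203.5 at 24 h and 201.6, 173.0 and 195.8 at 48 h. The 4 h arrays overlapped those at 0 h and all arrays from 12 h on lay below them. The log2 difference was 0.07 (SE 0.19) at 4 h, -0.56 at 12 h, -0.99 (SE 0.19, limma adjusted p = 0.013) at 24 h and -0.82 (SE 0.19, limma adjusted p = 0.039) at 48 h. The 24 h call was lost without 0 h replicate 2, 24 h replicate 1 or 24 h replicate 2, with adjusted p-values up to 0.087, and when only the arrays of the hours compared were fitted (limma adjusted p = 0.057). The 48 h call was lost without any of 10 of the 15 arrays (all those at 0 and 48 h, and replicates 1 and 2 at 12 and 24 h), with adjusted p-values up to 0.21, and also with no filter (limma adjusted p = 0.063) or with only the hours compared (limma adjusted p = 0.13).

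Smad7, the inhibitory Smad that acts on both BMP and TGF-beta receptors, had 1 probe set on each chip. The A chip set (1423389_at) read 640.1, 782.5 and 699.0 at 0 h, 553.7, 601.8 and 530.0 at 4 h, and 396.0, 510.8 and 519.8 at 12 h. It read 371.9, 425.1 and 544.6 at 24 h and 601.6, 480.7 and 566.0 at 48 h. All later arrays lay below all 0 h arrays, yet the log2 difference of -0.64 (SE 0.16) at 24 h missed the threshold over all arrays (limma adjusted p = 0.054) and passed it with replicate 3 as a batch (limma adjusted p = 0.0097). At 48 h the mean was 77.7% of that at 0 h (difference -0.35, limma adjusted p = 0.34). The B chip set (1443771_x_at) read 294.7, 354.3 and 301.9 at 0 h and 143.9, 147.7 and 94.2 at 4 h. Its lowest mean was at 4 h, 40.6% of 0 h, where its groups did not overlap, and the difference of -1.03 (SE 0.30) was not called (limma adjusted p = 0.88). At 24 h it read 163.4, 138.8 and 359.7, so that replicate 3 lay above all 0 h arrays. The suffix of the B chip set marks probes that may match other transcripts, the chips were scaled separately, and the 2 sets differ in the hour of their lowest mean.

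Bmp4, the ligand of the set (1422912_at), read 60.1 and 53.2 at 0 h in replicates 1 and 2 and 184.4 in replicate 3. At 4 h it read 54.5, 59.8 and 383.2, at 12 h 72.2, 38.4 and 448.1, at 24 h 43.0, 17.3 and 382.9, and at 48 h 93.3, 70.5 and 562.2. Replicate 3 was the highest array at all 5 hours, and replicates 1 and 2 stayed under the filter's floor of 96.6 at every hour, so the probe set passed the filter through replicate 3. It therefore had to differ between the replicates, and the log2 difference of 2.27 (SE 0.18) between replicate 3 and the others is given as a description. Against 0 h, no difference was called in the 3 fits, with limma adjusted p-values of 0.79 to 0.999 over all arrays and 0.10 to 0.92 with replicate 3 as a batch. The standard error over all arrays was 0.94, against 0.28 with the batch term.

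The Id genes themselves lay lower in replicate 3 over all hours: by -0.67 (SE 0.10) for Id1, -0.64 (SE 0.15) for Id2, -0.49 (SE 0.09) for Id3 and -0.51 (SE 0.13) for the main Id4 set on the log2 scale (limma adjusted p = 5.7e-05, 0.0026, 0.00033 and 0.0043), beside 17.5% of the A chip's tested probe sets lower in replicate 3. For Atoh8 (-0.35), Smad6 (0.16), the A chip set of Smad7 (0.11) and the dimmest Id2 set (-0.25) the difference did not pass the threshold (limma adjusted p = 0.079, 0.31, 0.42 and 0.14). The replicate with the highest Bmp4 intensity had the lowest intensity of Id1, Id3 and the brighter pair of Id2 sets at all 5 hours, and of the dimmest Id2 set at 3 of them. It also had the highest cell division sums, and the part of either in the Id levels was not tested.

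Between successive hours no member was called over all arrays by limma. The shares of the A chip's tested probe sets called were 0% (12 against 4 h), 0% (24 against 12 h) and 0.0147% (48 against 24 h). Of the 12 tested member probe sets, 1, 4 and 0 had an unadjusted limma p under 0.05. On the whole A chip 647, 814 and 1077 of 13576 did, and on B 1039, 837 and 1708 of 13507. With replicate 3 as a batch, the step from 12 to 24 h was called for Id1 (-0.80, limma adjusted p = 0.025), Id3 (-1.11, limma adjusted p = 0.00098) and Atoh8 (-1.15, limma adjusted p = 0.036), beside 0.302% of the A chip. In replicates 1 and 2 alone it was called for Id1 and Id3 (beside 2.7%) and not for Atoh8 (limma adjusted p = 0.063). Over all 5 hours together the F test called Id3, Atoh8 and Smad6 over all arrays (limma adjusted p = 0.0029, 0.0010 and 0.017), beside 1.97% of the A chip, and 9 member probe sets with the batch term, beside 14%.

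Genes whose time course was most like each member were ranked by Pearson's r over the 15 A chip arrays, after centring each probe set within each replicate number, which removes the level that arrays of a number share. The arrays share hours, so r is a description. The gene most like both Id1 (r = 0.969) and Id3 (r = 0.977) was Rgs4, a regulator of G protein signalling, whose mean was 1052 at 0 h and 178.5 at 24 h. Id1 and Id3 were each the second most like the other (r = 0.969), followed by Epb41l1 for Id1 and Smoc2 for Id3. Id2 was most like Id1 (r = 0.914), then Hip1r and Sh2b2. Atoh8, whose mean was lower at each later hour, was most like Slc25a10 (r = 0.985), Tafa5 (r = 0.979) and Cstb. Smad6 was most like Cdk4, the G1 cyclin-dependent kinase (r = 0.971), then Gnb4 and Ldhb. Smad7 was most like Nipsnap1 (r = 0.931), Tcf19 and Ier3, and Id4 like D17H6S56E-5 (r = 0.946), Ahcy and Tpgs2. Bmp4 had weaker matches, Knop1 (r = 0.855), Nop58 and Orc5. Among the members, Atoh8 correlated with Id3 at r = 0.933 and with Smad7 at r = 0.431, and Bmp4 had r between -0.417 and 0.0971 with every other member.

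The rest of the pathway was read through lists, with 1 probe set a gene. Among genes so represented, 2.52% were called at 24 h and 2.04% at 48 h over all arrays. Upstream of the members, none of the 4 tested ligands, 12 receptors and co-receptors, 10 Smads and nuclear partners or 10 antagonists was called at 4, 12, 24 or 48 h over all arrays. The median log2 difference at 24 h was -0.29 for the ligands, 0.11 for the receptors, -0.0031 for the Smads and -0.15 for the antagonists, where the 8 members had -1.12 and all 12446 genes -0.050. Of 12 listed ligands, Bmp2, Bmp3, Bmp6, Bmp7, Bmp8a, Gdf5, Gdf6 and Gdf7 did not pass the filter or had no probe set, and of the tested ones Gdf2 went from a mean of 183.1 at 0 h to 76.0 at 4 h without a call. The type I receptors Bmpr1a (0.19, SE 0.22) and Acvr1 (0.12, SE 0.18) and the signal-carrying Smad1 (0.33, SE 0.16), Smad5 (-0.11, SE 0.17) and Smad4 (0.13, SE 0.14) had log2 differences at 24 h that were not called in the fits over all arrays or with the batch term.

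With replicate 3 as a batch, 11.3% of all genes were called at 24 h and 8.9% at 48 h. At 24 h the calls were 0 of 4 ligands, 1 of 12 receptors and 0 of 10 Smads and partners. Of 10 antagonists, 1 was lower and 1 higher. At 48 h they were 0 of 4 ligands, 1 of 12 receptors, 1 of 10 Smads and partners and 2 of 10 antagonists. In lists this small, these counts lie near what the shares over all genes would give. The genes called in that fit are described singly. Among receptors Hjv, the co-receptor hemojuvelin, was higher at 24 h (1.01, SE over all arrays 0.29, limma adjusted p = 0.036). It read 5069, 5081 and 5862 at 0 h and 13610, 13440 and 6777 at 24 h. Most of the rise lay in replicates 1 and 2, which alone gave 1.405 (limma adjusted p = 5.0e-05). With the batch term Eng, the co-receptor endoglin, was lower at 48 h (-0.94, limma adjusted p = 0.013). Neo1 (-0.66 at 24 h) and Acvr2b (1.21 at 48 h) were not called in that fit. Among Smads and partners only Smurf2, a ubiquitin ligase that acts on Smads and their receptors, was called, lower at 48 h (-0.45, limma adjusted p = 0.038), while Smad3 and Tob1 were not. Among antagonists, Crim1 was lower at 24 h (-0.87, limma adjusted p = 0.047). It read 859.8, 903.9 and 1192 at 0 h and 310.3, 372 and 1187 at 24 h, so the difference lay in replicates 1 and 2, which alone gave -1.30 (limma adjusted p = 0.00010). With the batch term Fst, the activin and BMP binder follistatin, was higher at 24 h (0.44, limma adjusted p = 0.022). In that fit Fstl1 (-1.37, limma adjusted p = 0.013) and Nbl1 (-0.98, limma adjusted p = 0.0056) were lower at 48 h. Fstl1 read 3052, 2236 and 2895 at 0 h and 641.2, 679.7 and 2437 at 48 h. Most of its fall lay in replicates 1 and 2, which alone gave -1.94 (limma adjusted p = 3.9e-06). Nbl1 read 934.1, 1049 and 394.1 at 0 h and 464.9, 317.7 and 303.6 at 48 h. Twsg1, another antagonist, was not called over all arrays or with the batch term. In replicates 1 and 2 alone it was lower at 24 h (-0.71, limma adjusted p = 0.0079) and 48 h (-0.52, limma adjusted p = 0.046). Noggin (Nog) and Bambi did not pass the filter.

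**Figure D5:**
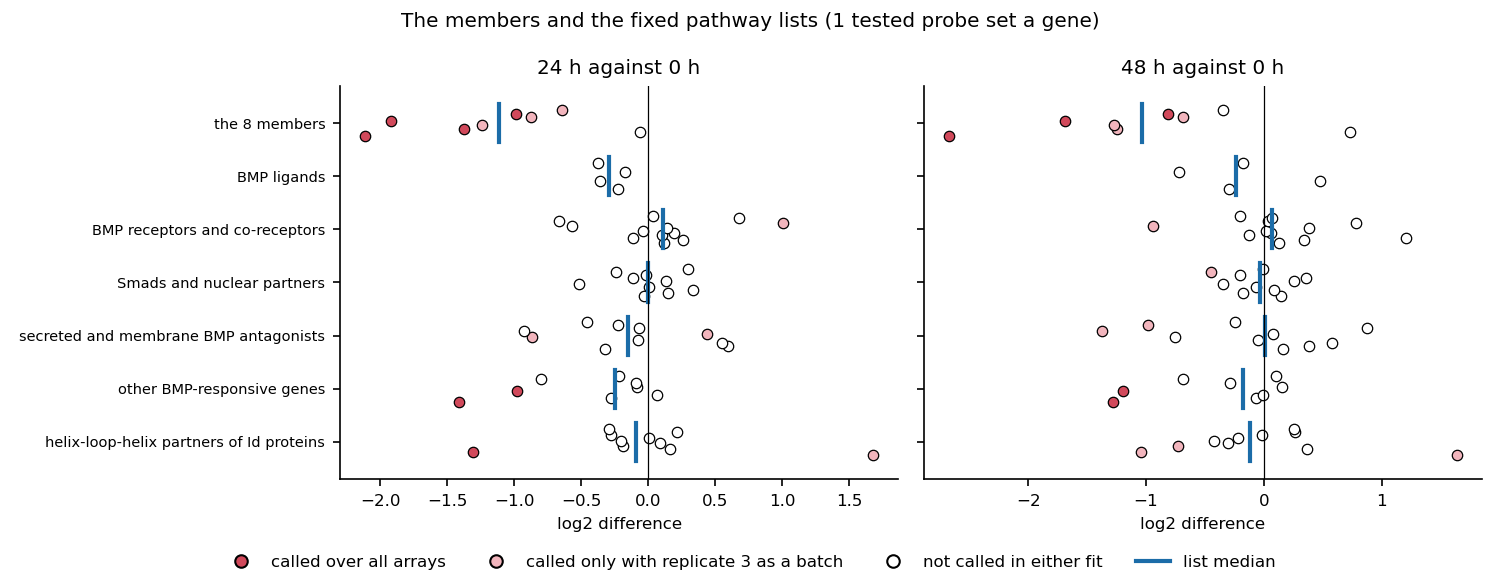
Log2 difference from 0 h (x axis) at 24 and 48 h for each tested gene of the 8 members and of 6 pathway lists (y axis), with a blue bar at the list median. At 24 h the members' median is -1.12, and the list medians lie between -0.29 and 0.11.

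Of 8 tested genes in a list of other BMP-responsive genes, 2 fell over all arrays at both 24 and 48 h. Junb, an AP-1 subunit, read 949.9, 1110 and 972.9 at 0 h, 481.4, 450.9 and 563.7 at 24 h, and 468.9, 321.5 and 499.5 at 48 h. Its groups did not overlap, and the log2 difference was -0.98 (SE 0.17, limma adjusted p = 0.0080) at 24 h and -1.20 (SE 0.17, limma adjusted p = 0.0028) at 48 h. Dlx3, a homeobox factor, had a mean of 229.9 ± 72.3 (SD, n = 3) at 0 h and read 99.9, 88.5 and 27.2 at 24 h and 64.7, 89.1 and 71.4 at 48 h. Its log2 difference was -1.41 (SE 0.31, limma adjusted p = 0.025) at 24 h and -1.28 (SE 0.31, limma adjusted p = 0.047) at 48 h. Msx1 and Msx2, textbook BMP targets in limb and skull, each differed by -0.09 at 24 h, and neither they nor Hes1, Sp7, Tbx3 or Gata2 were called in the 3 fits.

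Of 10 tested helix-loop-helix partners of Id proteins, only Myf5, a myogenic factor of undifferentiated myoblasts, was called over all arrays. It read 518.4, 314.0 and 278.9 at 0 h and 148.0, 96.4 and 143.3 at 24 h, with no overlap and a log2 difference of -1.31 (SE 0.30, limma adjusted p = 0.031). The E proteins Tcf3 (-0.28, SE 0.22), Tcf4 (0.21, SE 0.25) and Tcf12 (-0.20, SE 0.17) are the direct partners of Id proteins. Neither they nor Myog (0.09, SE 0.13) were called at 24 h over all arrays or with the batch term. At 48 h in replicates 1 and 2 alone, Tcf12, Myod1 and Myf5 were called lower and Bhlhe40 higher, beside 11.7% of all genes called. With replicate 3 as a batch, Myod1 was lower at 48 h (-0.73, limma adjusted p = 0.0011) and Bhlhe40, a repressor of the same class, was higher at 24 h (1.68, limma adjusted p = 0.0020) and 48 h (1.64, limma adjusted p = 0.0029). Bhlhe40 read 4.9 to 52.4 in replicates 1 and 2 at 0, 4 and 12 h, near or under the pseudocount of 29. The size of its rise therefore depends on the pseudocount. It passed the filter through replicate 3 (166.1 to 676.6). Myf6 passed through replicates 1 and 2, and read 11.9 to 74.9 in replicate 3, under the filter's floor of 96.6. Both therefore had to differ between the replicates. As a description, Bhlhe40 was 2.23 higher in replicate 3 on the log2 scale, and Myf6 was lower there by -1.27.

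Markers of other programmes moved over the same hours as the members. With the batch term, 7 of 9 cell division genes were lower at 24 h, beside 6.0% of all genes, and 0 at 48 h, beside 4.8%. Over all arrays 0 were called at either hour. The summed level was 6598.9 to 14486 at 0 h and 3324.7 to 11433 at 24 h. Of 3 tested cartilage markers, the collagen Col2a1 fell at 24 h (-2.77, SE 0.40, limma adjusted p = 0.0038), while Sox9 (0.030) and Col11a1 (-0.081) were not called. The sum of 7 cartilage markers was 1204.1 to 1959 at 0 h and 409.5 to 792.2 at 24 h, with Acan, Col9a1, Matn1 and Hapln1 below the filter. Of 2 tested Schwann cell markers, Erbb3, a neuregulin receptor, rose at 24 h (1.51, SE 0.23, limma adjusted p = 0.0042) and 48 h (1.07, limma adjusted p = 0.026). The other, Sox10 (0.35 at 24 h), was not called. The sum of the 4 Schwann cell markers was 754.7 to 1109.2 at 0 h and 1803.7 to 2606.9 at 24 h, with Ngfr and Mbp below the filter. Of the pericyte or smooth muscle markers, Abcc9 rose at 24 h (1.46, SE 0.25, limma adjusted p = 0.011), Rgs5 was called lower with the batch term and in replicates 1 and 2 alone and not over all arrays (-1.90 at 24 h, limma adjusted p = 3.0e-05 with the batch term), and Cspg4 and Acta2 were not called. The fibroblast markers Col3a1 (-1.02) and Col6a1 (-0.94) were lower at 24 h in replicates 1 and 2 alone (limma adjusted p = 0.00014 and 0.0019) and not called over all arrays. Of 10 skeletal muscle markers, 3 (Myh3, Ckm and Actn2) were higher at 24 h and none was lower over all arrays, beside 2.52% of all genes called. At 48 h 2 (Myh3 and Actn2) were higher, beside 2.04% called. The sum was 47514 to 53507 at 0 h and 66828 to 76095 at 24 h. At 48 h it was 48134 to 80646 and overlapped 0 h. The part of any of these in the members' differences was not tested.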

How the data were processed

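RNA of 5 hours with 3 replicates each was measured on the A and the B chip, and the titles gave hour, chip and replicate number. Values were deposited as linear intensities per probe set and array. Per the labels, the manufacturer's standard protocol was used, while the sources used here do not state the probe summary algorithm, detection calls or build. The 2%-trimmed mean of the deposited intensities was about 500.1 on every array, so arrays had been scaled as a whole, which hides any change in total RNA, and no further scaling was applied. The number of arrays limits the precision.

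Deposited intensities were transformed here to log2 after adding the 20th percentile of the chip (29 on A, 54 on B). Probe sets in the upper 60% by mean log2 entered the tests (A 13576, B 13507). The fit was made per chip in limma 3.58.1 (R 4.3.3; lmFit, eBayes with trend) over its 15 arrays with hour as factor. Tests were two-sided with Benjamini-Hochberg adjustment within chip and comparison, and called at an adjusted p under 0.05. With 3 arrays against 3, an exact permutation test cannot go below 0.1. The fits over all arrays and with the replicate block were tested on simulated data, for 48 h against 0 h only. The other fits were not.

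The brightest tested probe set stood for a gene, from A before B. Named genes were all members, the 3 genes most like each, and, per list, up to 4 genes with the smallest adjusted p of the F test in the replicate block fit plus any gene called over all arrays. Further list genes and markers were named outside that rule, and not every gene it picks is described. The members, lists and alternatives were chosen with earlier results of these data known. The alternatives were the scaling, pseudocount, filter, trend, array weights, replicate block, replicate 3 as a batch, replicates 1 and 2 alone, the arrays fitted, an added 2-fold threshold, another probe set, and each array left out.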

Additional observations from a re-analysis of the deposited data

How the results depend on the processing

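Of 1332 values of single probe sets under alternatives, 1318 kept their direction and 14 did not, all for differences that were not called. Bmp4 at 12 h was -0.051 in replicates 1 and 2 alone, and at 24 h it was 0.014 with quantile normalization, 0.028 with median centring and 0.080 with a pseudocount 4 times larger. Smad6 at 4 h was -0.10 in replicates 1 and 2 alone and -0.012 with array quality weights. With each array left out in turn, Bmp4 ran from -0.43 to 0.76 at 4 h, -0.49 to 0.92 at 12 h, -1.01 to 0.57 at 24 h and -0.073 to 1.21 at 48 h, and Smad6 at 4 h from -0.063 to 0.26.

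The number of member probe sets called changed most with the treatment of replicate 3. At 12 h (0 over all arrays) it was 1 with the replicate block, 2 with replicate 3 as a batch, 3 in replicates 1 and 2 alone and 3 with array weights. At 24 h (4) it was 9, 9, 8 and 9 in that order, and at 48 h (3) it was 8, 8, 6 and 7, and 5 with quantile normalization or median centring. For 24 against 12 h (0) it was 2, 3, 2 and 4, and for 48 against 24 h (0) it was 1 in replicates 1 and 2 alone and 1 with array weights. For the F test (3) it was 8, 9, 8 and 8, and 1 with the upper 40% of probe sets, which leaves fewer members tested. With each array left out the count ran from 2 to 7 at 24 h, 2 to 6 at 48 h and 2 to 4 for the F test. Among the A chip's 13576 tested probe sets the calls rose too. Over all arrays, with the replicate block, with the batch term, and in replicates 1 and 2 alone, they were 0, 96, 143 and 568 at 12 h. They were 362, 1663, 1770 and 2036 at 24 h, and 292, 1223, 1329 and 1678 at 48 h. For 24 against 12 h they were 0, 33, 41 and 366, and for the F test 267, 1637, 1895 and 2376. For 48 against 24 h, 2 were called over all arrays and 628 in replicates 1 and 2 alone. Whole-chip counts for the other alternatives are not given here.

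Arrays of the same replicate number correlated in their deviations from the hour means with a median r of 0.365, 0.359 and 0.634 for replicates 1, 2 and 3 on A, with 9, 10 and 10 of 10 pairs over 0.1. On B the medians were 0.102, 0.13 and 0.323, with 5, 8 and 10 of 10 pairs over 0.1. Since not every pair was over 0.1 (the lowest were 0.0443 on A and 0.00258 on B), the fit without the block was kept, although the A chip missed the mark by 1 pair. With the replicate block, the calls at 24 h of Crim1 (limma adjusted p = 0.056) and Hjv (0.0504) made with the batch term were lost. Each array of replicate 3 correlated best with its own number in 20 of 20 comparisons on both chips, those of replicate 1 in 10 and 9 and those of replicate 2 in 9 and 13. Without detection calls, how far Atoh8 at 48 h and Bmp4 in replicates 1 and 2 lay above background is unknown.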
